A study of Xenopus laevis with 4 samples.

Results

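The genes described here encode Vg1 (gdf1), Derrière (gdf3), the Nodal ligands and Lefty, secreted proteins of the TGF-beta family. They were taken as every probe set that the platform annotation gives to 1 gene whose symbol, without case and homeolog suffix, is gdf1, gdf3 or lefty or begins with nodal. This found 10 probe sets, 1 per gene, among 15491 on the array after control probe sets were left out. They were gdf1.S, gdf3.S, 6 Nodal genes (nodal1.L, nodal2.L, nodal.L, nodal3.1.L, nodal5.2.L and nodal6.L), lefty.L and lefty.S. The suffixes .L and .S name the homeologous gene copies of Xenopus laevis. RefSeq, assembly Xenopus_laevis_v10.1, matched all 10 by gene identifier. It lists vg1 as a synonym of gdf1.S, derriere of gdf3.S, antivin of both lefty genes and xnr4 of nodal.L. It also lists gdf1.L as a synonym of gdf1.S, so the homeolog suffix of the Vg1 gene is not settled by these names. Of 15 such genes in RefSeq, 5 (nodal.S, nodal1.S, nodal3.2.L, nodal5.L and nodal6.S) had no single-gene probe set here.

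Vg1, Derrière and the Nodal ligands act through activin-type receptors and the Smad2 and Smad3 transducers to induce mesoderm and endoderm. In Xenopus the RNA of gdf1 is laid down in the oocyte and anchored at its vegetal cortex, whereas the nodal genes, gdf3 and lefty are transcribed from the embryo's own genome. The nodal5 and nodal6 genes are switched on earliest, nodal1, nodal2 and nodal.L follow, and nodal3 genes are organizer genes that act outside mesoderm induction. Lefty is induced by Nodal signalling and blocks it.

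Whole embryos at stage 12, in gastrulation, were profiled on 4 Affymetrix arrays. Injection took place at the 4-cell stage. One group received control morpholino (80 ng), the other a pair of xSGK1 morpholinos (40 ng each), xSGK1 being the frog form of the kinase SGK1. Morpholinos are antisense oligonucleotides that block translation or splicing. The study ran 2 independent experiments, both holding 1 array of either kind. Groups therefore have n = 2, which limits the precision of every value below. No strain is named in the labels, and all groups share the injection itself. All arrays come from 1 stage, so the maternal or zygotic origin of an RNA is background knowledge and was not measured. Signals are given after scaling every array to a trimmed mean of 500. Log2 changes are taken on signal + 16, as xSGK1 minus control morpholino, so those of dim probe sets are understated. The signal of one probe set is not compared with that of another, since probe sets differ in response.

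The transcript of the target, sgk1.L, measured 2321 and 2839 with the control morpholino and 3071 and 3300 with xSGK1 morpholinos in experiments 1 and 2. Because morpholinos can act without lowering the RNA they bind, these values do not check the knockdown. Median signals ran from 161 to 174 across arrays. Markers of all germ layers reached a mean signal of 100, read by the brightest probe set of each gene copy. These were 14 of 16 endodermal, 14 of 14 mesodermal, 11 of 11 epidermal and 12 of 14 neural gene copies. Of all 15491 probe sets 9251 did so. Between the experiments limma called 40.8% of 9251 probe sets, so array signals are given with experiment 1 before experiment 2. Log2 changes and list medians pool both experiments unless an experiment is named.

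Of the ligand genes, gdf1.S rose to about double its control signal after xSGK1 morpholinos, a call made only where the arrays were paired by experiment. The control arrays read 828 in experiment 1 and 872 in experiment 2, and the xSGK1 arrays read 1712 and 1710. Both xSGK1 arrays lay far above both controls, and the arrays of each group nearly coincided. The ratio was 2.07 in experiment 1 and 1.96 in experiment 2. SE and intervals here and below are moderated by limma, which draws on the variance of other probe sets too. With experiment as a block in limma, the log2 change was 0.996 ± 0.13 (SE, n = 2 per group), with a 95% interval from 0.68 to 1.31 (adjusted p = 0.0232). The primary limma fit has no such block, and there the adjusted p was 0.999 and the unadjusted p 0.00767. The limma fit with the block called 8.0% of 9251 probe sets, 4.09% as higher and 3.91% as lower, and the fit without it called 0.0%, with 3.61% at an unadjusted p under 0.05. The rise of gdf1.S ranked 192 of 9251, the largest rise being first, so many probe sets rose as far. With gdf1.S included, 1 of the 4 ligand genes above the signal filter passed with the block. With the block and no filter 1 of all 10 passed, beside 4.29% of 15491 probe sets. Without the block 0 of the 10 passed.

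**Figure D1:**
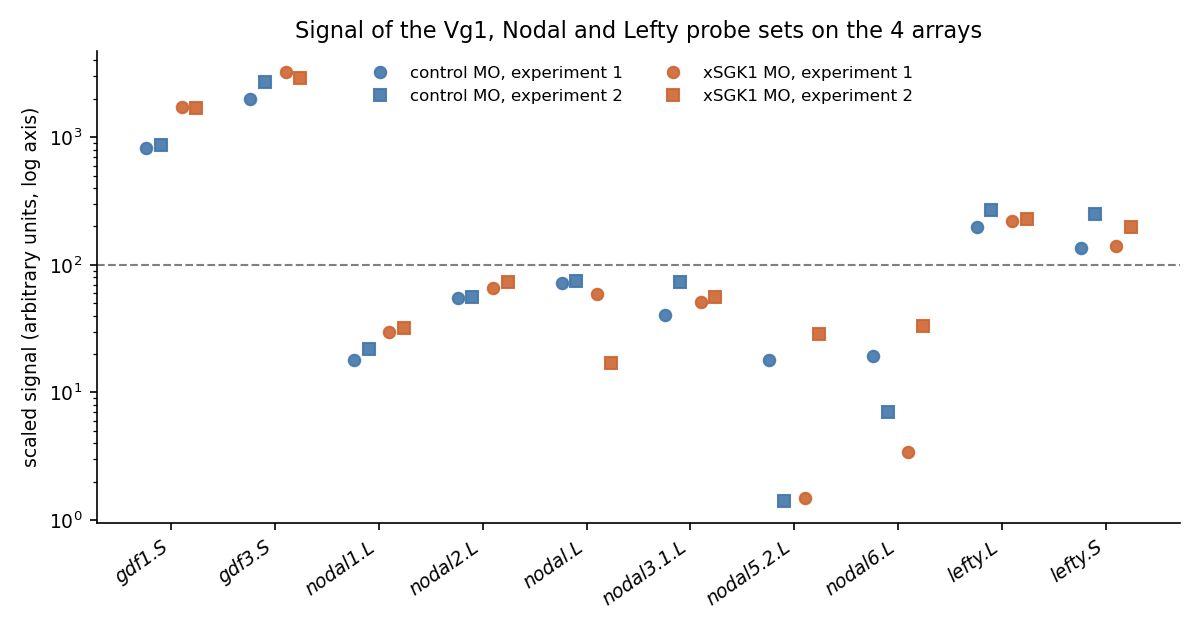
Scaled signal (log axis) of each of the 10 probe sets on the control (blue) and xSGK1 morpholino (orange) arrays of experiment 1 (circles) and experiment 2 (squares), with the filter at a mean signal of 100 as a dashed line. Both xSGK1 arrays stand above both controls for gdf1.S, at 1712 and 1710 against 828 and 872, while the 6 Nodal probe sets lie under the filter.

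The other Vg1-type ligand, gdf3.S, was higher in both experiments but did not pass. This gene encodes Derrière, a zygotic ligand that acts in posterior mesoderm. Its signal was 1988 and 2695 in the control arrays and 3235 and 2934 in the xSGK1 arrays. The groups did not overlap, and the ratio was 1.63 in experiment 1 and 1.09 in experiment 2. The log2 change was 0.41 ± 0.16 (SE, n = 2 per group), with a 95% interval from 0.03 to 0.79, and limma's adjusted p was 0.148 with the block and 0.999 without it. It passed only where the block was joined with cyclic loess normalization (adjusted p = 0.0462).

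The 2 Lefty genes showed no change beyond the spread between arrays. The lefty.L probe set read 197 in experiment 1 and 267 in experiment 2 with the control morpholino, and 219 and 228 with xSGK1 morpholinos. Both xSGK1 values lay between the 2 controls. The log2 change was -0.04 ± 0.18 (SE, n = 2 per group), with a 95% interval from -0.49 to 0.42 and a limma adjusted p of 0.917 with the block. The signal of lefty.S was 137 and 250 in controls and 140 and 198 after xSGK1 morpholinos. Here too the xSGK1 arrays lay within the range of the controls. The log2 change was -0.14 ± 0.19 (SE, n = 2 per group), with a 95% interval from -0.61 to 0.33 and a limma adjusted p of 0.658. These intervals, from the fit with the block, run from 0.71-fold to 1.33-fold for lefty.L and from 0.66-fold to 1.25-fold for lefty.S. Neither reaches a doubling, while changes within these bounds in either direction remain possible. Without the block the SE was larger, at 0.32 for lefty.L and 0.42 for lefty.S. For both genes the sign differed between the experiments and turned with 1 array left out: without the control array of experiment 2 the change was 0.17 for lefty.L and 0.26 for lefty.S, and without the xSGK1 array of experiment 1 it was 0.09 for lefty.S.

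The 6 Nodal probe sets were dim. Their signals ran from 1.40 to 75.3 and their highest mean was 62.3, while the dimmest ligand above the filter, lefty.S, had a mean of 181. No detection calls were used here, so these signals are not shown to differ from background. Their changes were fitted with the block and without the signal filter.

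The vegetally induced ligand nodal1.L measured 17.8 and 21.8 in controls and 29.9 and 31.8 with xSGK1 morpholinos, both above both controls. Its log2 change was 0.39 ± 0.23 (SE, n = 2 per group; limma adjusted p = 0.37). The related nodal2.L behaved likewise at 54.9 and 56.2 against 65.3 and 73.0, a log2 change of 0.25 ± 0.23 (SE, n = 2 per group; limma adjusted p = 0.571). The later ligand nodal.L was lower in both experiments, at 72.1 and 75.3 in controls and 58.7 and 16.9 after xSGK1 morpholinos. The 2 xSGK1 arrays of nodal.L differed from each other more than the lower control did from the higher of them. Its log2 change was -0.86 ± 0.33 (SE, n = 2 per group; limma adjusted p = 0.187).

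The organizer-type gene nodal3.1.L gave 40.2 and 73.3 in controls and 51.5 and 55.8 with xSGK1 morpholinos, so its groups overlapped. The nodal5 and nodal6 genes, the earliest of the ligands, gave no common direction. The nodal5.2.L probe set gave 18.1 and 1.4 in controls and 1.5 and 28.8 after xSGK1 morpholinos. The nodal6.L probe set gave 19.2 and 7.0 in controls and 3.40 and 33.3 after xSGK1 morpholinos. For both genes the xSGK1 array was the lower one in experiment 1 and the higher one in experiment 2.

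**Figure D2:**
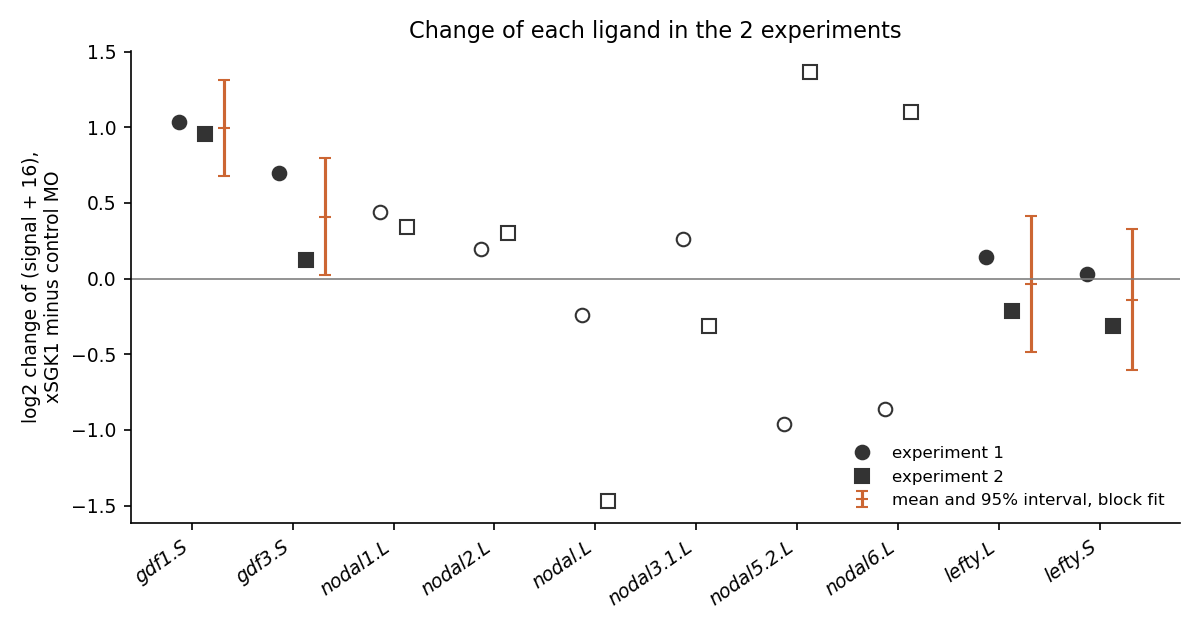
Log2 change of signal + 16 (xSGK1 minus control morpholino) of each ligand in experiment 1 (circles) and experiment 2 (squares), filled where the probe set passed the signal filter and open where it did not, with the mean and 95% interval of the limma fit with the block in orange for the 4 that passed. For gdf1.S the 2 experiments gave 1.03 and 0.96, for gdf3.S 0.70 and 0.12, and for nodal5.2.L and nodal6.L they gave opposite signs.

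Over all 10 genes both xSGK1 arrays lay above both controls for 4 (gdf1.S, gdf3.S, nodal1.L and nodal2.L) and below both for 1 (nodal.L), while 5 overlapped. Of all 15491 probe sets 16.2% lay above and 14.6% below in this way.

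The maternally supplied gdf1.S was set against each zygotic gene by taking, on each array, log2(signal + 16) of gdf1.S minus that of the other probe set, so that only the shift of this difference between injections is read. Against gdf3.S it shifted by 0.34 in experiment 1 and 0.84 in experiment 2 toward gdf1.S. Against lefty.L the shift was 0.89 and 1.17, and against lefty.S it was 1.0 and 1.27. In each of these 3 contrasts both xSGK1 arrays lay above both controls. Over all 9 contrasts 7 did so, and those with nodal5.2.L and nodal6.L overlapped. An exact two-sided permutation test over the 4 arrays gave p = 0.333 for the 7, which is the smallest it can give with 2 arrays per group, and 0.667 for the other pair. Adjusted over the 9 contrasts these were 0.429 and 0.667. With gdf1.S set in the same way against every other probe set above the filter, 80.4% of 9250 shifted without overlap, and 83.8% of 15490 without the filter. The share among the ligands is near that background and is no result about them.

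**Figure D3:**
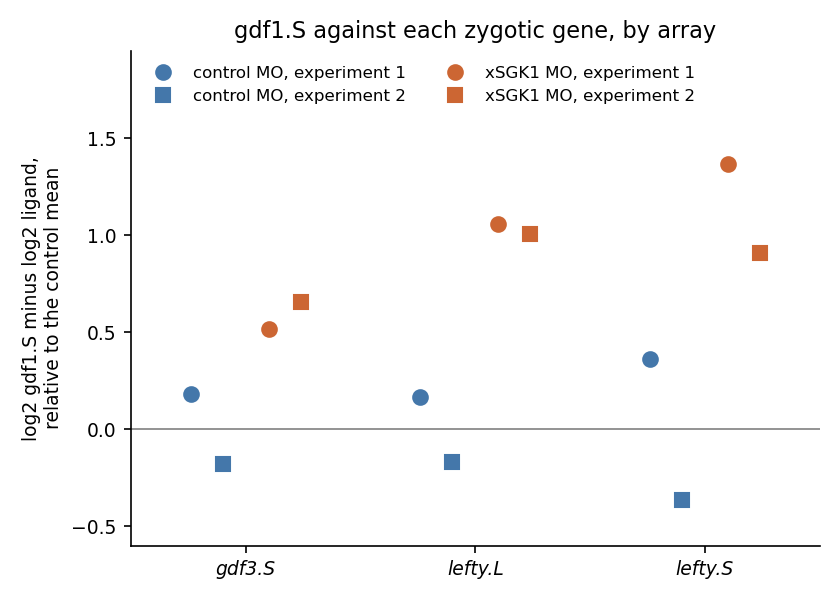
For each array, log2(signal + 16) of gdf1.S minus that of gdf3.S, lefty.L or lefty.S, drawn relative to the mean of the 2 control arrays. All xSGK1 points (orange) lie above all control points (blue) for each gene, with mean shifts of 0.59 for gdf3.S, 1.03 for lefty.L and 1.14 for lefty.S.

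The difference between the experiments (experiment 2 minus experiment 1, log2) was 0.04 ± 0.13 (SE; limma adjusted p = 0.842) for gdf1.S, with its sign turned under quantile normalization. For gdf3.S it was 0.15 ± 0.16 (SE; adjusted p = 0.483). For lefty.L the difference was 0.23 ± 0.18 (SE; limma adjusted p = 0.353), being 0.05 between the xSGK1 arrays and 0.41 between the control arrays. The lefty.S signal was higher in experiment 2 by 0.63 ± 0.19 (SE; limma adjusted p = 0.0431, and 0.0546 with quantile normalization). The 3' to 5' ratio of the beta-actin control also moved with the experiment, at 3.11 and 3.38 in experiment 1 and 2.24 and 2.06 in experiment 2, while that of GAPDH was 16.6 and 17.7 in experiment 1 and 16.4 and 15.6 in experiment 2. For both controls the 3' signal exceeded the 5' signal on every array. The part of these ratios in the lefty.S difference, or in any other signal here, was not tested.

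The 5 other single-gene probe sets whose pattern over the 4 arrays was nearest to that of gdf1.S, by Euclidean distance of centred log2 values among 6176, were psme1.S, rraga.S, cdc6.L, vps11.S and slc25a44.S. They encode a proteasome activator subunit, a Rag GTPase of amino acid sensing, a replication licensing factor, a subunit of endosomal tethering complexes and a mitochondrial carrier. Their distances ran from 0.0488 to 0.108. The nearest, psme1.S, measured 91.2 and 93.9 in controls and 194 and 196 after xSGK1 morpholinos. Its ratios were 2.12 and 2.09. Since 4 arrays fix such a pattern loosely, the likeness is a description only.

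The list used here, like those below, was chosen with earlier results of these data known, so its counts describe its members only. It holds other maternal RNAs that are anchored at the vegetal cortex, as gdf1 RNA is. Of 19 such gene copies on the array 18 passed the filter, and 2 of them rose with the block while 0 fell, beside 4.09% and 3.91% of all 9251 probe sets. Without the block 0 passed. Their median log2 change was 0.51, beside 0.04 over all 9251 probe sets, and 13 of the 18 were higher in both experiments, beside 40.8% of all probe sets. One was lower in both, beside 31.9%: wnt11b.L, which encodes a maternal Wnt ligand, gave 2125 and 2269 in controls and 1273 and 1939 after xSGK1 morpholinos (limma with the block, adjusted p = 0.105). One that rose was bicc1.S, which encodes the RNA-binding protein Bicaudal-C, at 239 and 261 in controls and 426 and 434 after xSGK1 morpholinos (log2 change 0.75 ± 0.16 SE, n = 2 per group; limma with the block, adjusted p = 0.0475; unblocked, 0.999). Of the 18 it was nearest to gdf1.S in pattern, at rank 19 of 6176. The other was plin2.S, a lipid droplet gene, at 779 and 1525 in controls and 1711 and 2724 after xSGK1 morpholinos (limma with the block, adjusted p = 0.0241; unblocked, 0.999). The summed signal of this list was 14367 and 21655 in controls and 19298 and 24346 in xSGK1 embryos. It was higher with xSGK1 morpholinos in both experiments, while the groups overlapped across the experiments. Bright probe sets weigh most in such a sum. In whole embryos, a change in the number of cells that hold an RNA and a change in its amount per cell cannot be told apart. The part of the changes in this list in the rise of gdf1.S was not tested.

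Each RNA was also compared between the experiments. The median of the 18 was higher in experiment 2 by 0.58 on the log2 scale, and 11 of them were called between the experiments by limma, a share to be read against 40.8% of all probe sets. For gdf1.S and bicc1.S that difference was 0.04 and 0.07, and for plin2.S it was 0.81.

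**Figure D4:**
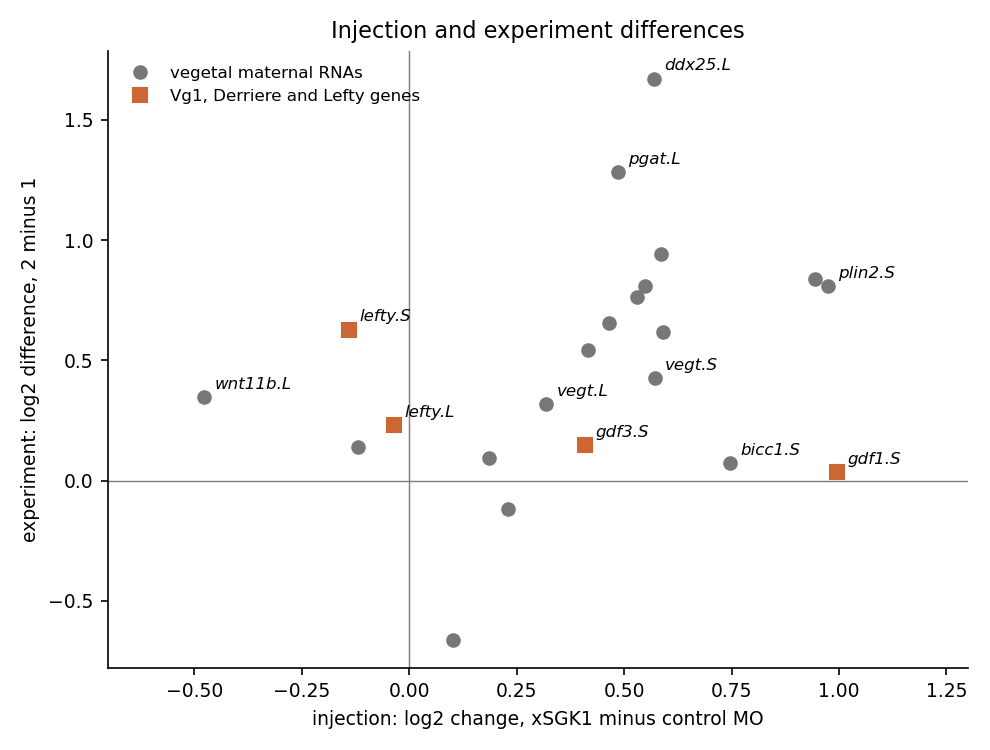
Log2 difference between injections (x axis, xSGK1 minus control morpholino) and between experiments (y axis, experiment 2 minus experiment 1) of 18 vegetally localised maternal RNAs (grey circles) and the 4 ligand genes above the filter (orange squares). On the y axis gdf1.S and bicc1.S lie near 0, at 0.04 and 0.07, whereas plin2.S lies at 0.81.

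Among 12 other maternal or oocyte RNAs above the filter 5 rose and 0 fell with the block, beside 4.09% and 3.91% of all probe sets. The median log2 change of the 12 was 0.26, with 0.58 in experiment 1 and 0.11 in experiment 2. In both experiments 7 of the 12 were higher and 3 lower, beside 40.8% and 31.9% of all probe sets. The 3 were zar1.S, h1-8.S and btg4.S (limma with the block, adjusted p = 0.258, 0.232 and 0.248). Those that rose were ccnb1.S and ccna1.L (cyclins), mos.L (the oocyte kinase Mos), ybx2.L (a Y-box protein that binds stored RNA) and pou5f3.3.L (a POU factor). All 5 passed in the contrast of the experiments too, where 40.8% of all probe sets did, with differences from 0.63 for ccnb1.S to 1.86 for pou5f3.3.L. The homeologs ybx2.S and ccna1.S did not pass, with log2 changes of -0.01 and 0.28 (limma with the block, adjusted p = 0.977 and 0.466). A dimmer probe set of mos.L gave 0.58 and did not pass either (limma with the block, adjusted p = 0.144). Of 12 gene copies for proteins that bind or transport Vg1 RNA in the oocyte, 0 rose and 0 fell, beside the same 4.09% and 3.91%. The median log2 change was -0.04. The largest moderated statistics there belonged to ptbp1.L and ptbp1.S, which encode the polypyrimidine tract binding protein, and to kif3b.S, a kinesin gene. By limma with the block their adjusted p-values were 0.179, 0.195 and 0.216. The signal of ptbp1.L was 887 and 423 in controls and 766 and 279 after xSGK1 morpholinos. A dimmer probe set of ptbp1.L gave a log2 change of 0.06 (limma with the block, adjusted p = 0.861).

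On the receptor side of the pathway, 0 of 4 gene copies above the filter rose and 0 fell with the block. Of all 9251 probe sets 4.09% rose and 3.91% fell, so 4 copies without a call are no result about the receptors. Their median log2 change was 0.01. The co-receptor gene tdgf1.3.L, whose EGF-CFC protein is needed for Nodal and Vg1 signalling, measured 3520 and 4637 in controls and 5361 and 5655 after xSGK1 morpholinos. Both xSGK1 arrays lay above both controls, with a log2 change of 0.44 ± 0.11 (SE, n = 2 per group; limma adjusted p = 0.0608 with the block). The type II receptor gene acvr2b.S had 1527 and 1682 in controls and 1187 and 1081 after xSGK1 morpholinos, so both xSGK1 arrays lay below both controls. Its log2 change was -0.49 ± 0.14 (SE, n = 2 per group; limma adjusted p = 0.0778). The homeolog acvr2b.L gave 0.11 (limma adjusted p = 0.751). Of the 4 copies 1 thus lay above and 1 below without overlap, beside 16.3% and 13.8% of all 9251 probe sets. No other ligand of the Smad2 and Smad3 branch could be read, since 0 of 3 on the array (inhbb.L, tgfb1.L and tgfb2.L) passed the filter.

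Of 7 convertase and antagonist gene copies, which cleave the ligand precursors or hold the ligands back, 0 rose and 0 fell with the block. Their median log2 change was 0.15. Of all 9251 probe sets 4.09% rose and 3.91% fell, and the counts in this paragraph are to be read against those shares. The convertase gene pcsk7.L gave 318 and 514 in controls and 495 and 696 after xSGK1 morpholinos (limma adjusted p = 0.0917). The genes ncln.S and nomo3.L, whose zebrafish counterparts were described as Nodal antagonists, had limma adjusted p-values of 0.143 and 0.183. Of 10 Smads and nuclear partners 1 rose and 0 fell, with a median log2 change of 0.10. It was tgif2.L, a homeobox corepressor of Smad2 and Smad3, at 749 and 1503 in controls and 1417 and 2329 after xSGK1 morpholinos (log2 change 0.77 ± 0.14 SE, n = 2 per group; limma with the block, adjusted p = 0.0315; unblocked, 0.999). It differed between the experiments as much, by 0.85, and its homeolog tgif2.S gave 1367 and 1295 in controls and 1395 and 1060 after xSGK1 morpholinos.

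Regulators of the nodal genes and genes that Nodal signalling induces held no call, where 4.09% of all 9251 probe sets rose and 3.91% fell with the block. Lists of this size would hold few calls at those shares, so the lack of calls is no result about them. Of 9 regulators above the filter 0 rose and 0 fell. Their median log2 change was 0.0016, with 0.18 in experiment 1 and -0.0029 in experiment 2. The maternal T-box activator of nodal genes, vegt.L, measured 5354 and 7334 in controls and 7335 and 8343 after xSGK1 morpholinos (limma adjusted p = 0.091 with the block). Its homeolog vegt.S (adjusted p = 0.119 by limma) and the related T-box gene eomes.L (adjusted p = 0.0932) did not pass. Of 32 target gene copies 0 rose and 0 fell, with a median log2 change of -0.01 that was 0.25 in experiment 1 and -0.23 in experiment 2. The largest moderated statistics were those of lhx1.L (an organizer homeobox gene), mixer.S and mixer.L (endodermal homeobox genes). The signal of lhx1.L was 165 and 136 in controls and 294 and 235 after xSGK1 morpholinos (log2 change 0.75 ± 0.17 SE, n = 2 per group; limma adjusted p = 0.0537). The mixer genes gave limma adjusted p-values of 0.0566 and 0.063. Both xSGK1 arrays lay above both controls for 3 of the 32 copies and below both for 7, beside 16.3% and 13.8% of all 9251 probe sets. Among those below was gsc.S, another organizer homeobox gene, given as an example and not for the size of its change. It gave 157 and 161 in controls and 117 and 82.6 after xSGK1 morpholinos (limma with the block, adjusted p = 0.119). Another of those below, gata6.L, had a smaller adjusted p of 0.0787 in that fit. Some genes, such as vegt.L, eomes.L and the mixer genes, stand in more than 1 of these lists.

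**Figure D5:**
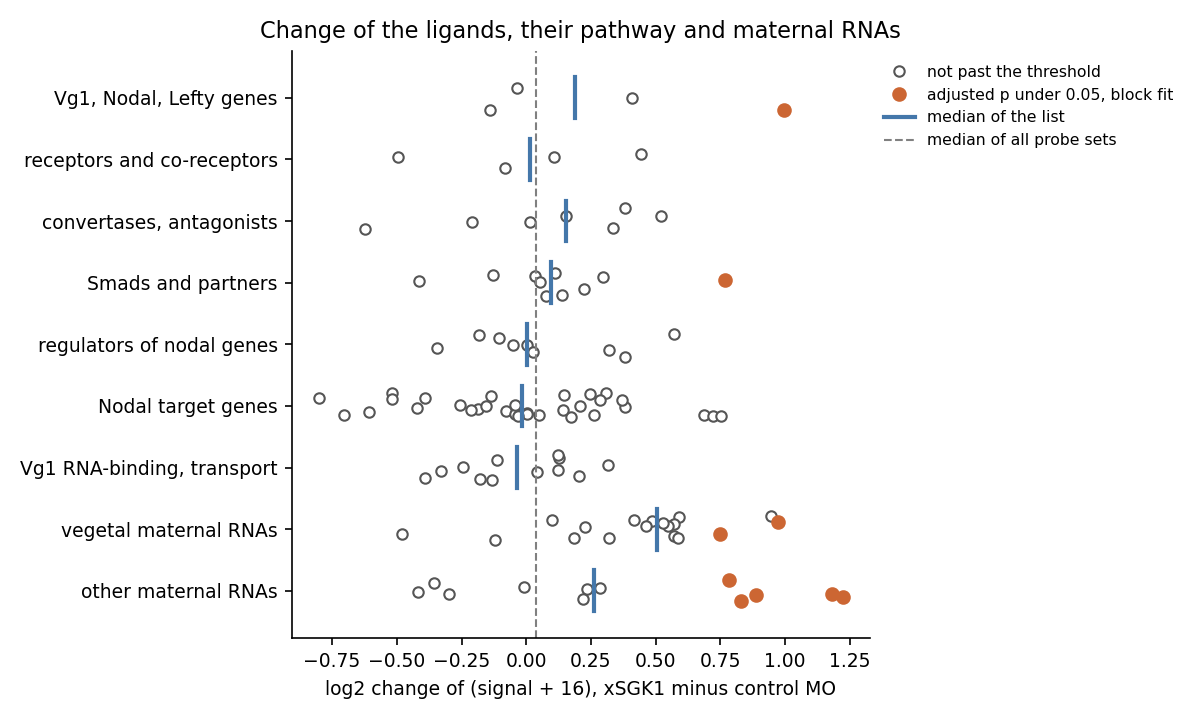
Log2 change of signal + 16 (xSGK1 minus control morpholino) of each gene copy above the filter in 9 lists, filled orange where the limma fit with the block gave an adjusted p under 0.05, with the list median in blue and the median of all probe sets, 0.04, dashed. Called genes stand among the ligands (gdf1.S), the Smad partners (tgif2.L) and both lists of maternal RNAs. All other lists, that of the targets included, hold none, where 8.0% of all 9251 probe sets were called. The target median of -0.01 was 0.25 in experiment 1 and -0.23 in experiment 2.

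Tissue markers and a list of early genes were counted with the block in the same way, where 3.91% of all 9251 probe sets fell and 4.09% rose. Of the epidermal markers 4 of 11 fell and 0 rose with the block (krt12.4.L, krt12.4.S, itln1.L and gata3.S), with a summed signal of 16021 and 8061 in controls and 9635 and 4095 in xSGK1 embryos. Of the mesodermal ones 4 of 14 fell and 0 rose (tbx6.L, msgn1.L, myod1.S and foxf1.L), with sums of 15637 and 15654 against 14280 and 11679. Of the endodermal ones, which mark the cells that inherit vegetal RNA, 1 of 14 fell (a2m.S) and 0 rose. Their median log2 change was -0.02, with 0.32 in experiment 1 and -0.30 in experiment 2. Their summed signal was 13197 and 13890 in controls and 11918 and 10548 in xSGK1 embryos. The bright a2m.S weighs on that sum, at 4225 and 2804 in controls and 2030 and 1687 after xSGK1 morpholinos. Neural markers held 0 calls among 12, with sums of 18810 and 21866 against 22152 and 19918. Of 10 gene copies above the filter from a list of genes taken as active around blastula stages, 1 fell (gs17.L) and 0 rose. Their median log2 change was 0.21, with 0.55 in experiment 1 and -0.15 in experiment 2. Their stage of peak expression was not measured. No summed list was at 0, and the part of these shifts in the values of the ligand genes was not tested.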

How the data were processed

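The authors deposited one linear intensity per probe set and array. MAS5 and GCOS are named in the submitters' processing notes, and version 1.4 of GCOS in the series text. Each array's 2% trimmed mean was 500.05 or 500.06 in the deposited signals. They were rescaled to 500 here and taken as log2(signal + 16). After removal of 120 controls, a mean signal of at least 100 was required, which kept 9251. Tests used lmFit and eBayes (trend on, two-sided) of limma 3.58.1, R 4.3.3. P-values were adjusted by Benjamini-Hochberg over all kept probe sets, and 0.05 was the threshold.

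Replicate numbers pair the arrays as experiments, because the series text describes 2 experiments with both injections in each. As a check of this pairing, the replicate difference among controls correlated with that among xSGK1 arrays at 0.838 (Pearson, 9251 probe sets). The primary fit has no block. The block changes calls, so both are given. Nothing else names separate animals, so p-values measure the spread between these arrays. Limma's SE, intervals and p-values rest on moderated variances, which draw each probe set's variance toward that of probe sets of like signal. They do not give the spread of a single probe set alone.

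Members and lists were chosen with earlier results of these data known. Named genes were all 10 probe sets, the list members past the threshold with the block (or else the 3 with the largest moderated statistic) and the 5 nearest patterns to gdf1.S. Some others were named outside this rule, such as homeologs, dim list members and members that moved the other way, gsc.S and wnt11b.L among them. A gene copy was represented by its brightest probe set. Scripts were tested on simulated data. Of all probe sets 9304 had 1 gene symbol, 195 several and 6112 none. No array build is named, so no coordinates are given. Alternatives were other offsets, filters, normalizations and variance models, with and without the block, and leaving out single arrays.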

Additional observations from a re-analysis of the deposited data

Results flagged for a closer look

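The nodal6.L probe set moved in opposite directions in the 2 experiments, with log2 changes of -0.86 in experiment 1 and 1.1 in experiment 2. The nodal5.2.L probe set did so too, with -0.96 and 1.36. All their signals lay between 1.40 and 33.3 and are not shown to differ from background, and the difference between the experiments was not tested, since each experiment holds 1 array per injection.

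A probe set that the annotation gives to both nodal3.1.L and nodal3.2.L was outside the comparisons because it names 2 genes. Its signal was 101 and 130 in controls and 134 and 154 after xSGK1 morpholinos, so its group mean was 1.25 times as high with both xSGK1 arrays above both controls. The single-gene nodal3.1.L probe set overlapped between the groups, and the limma adjusted p of the shared one was 0.349 with the block.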

How the results depend on the processing

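With the replicate block gdf1.S passed under all 9 settings, with limma adjusted p-values from 0.0015 to 0.0374. Its log2 change was 0.9962 (adjusted p = 0.0232), 1.0089 with an offset of 1, 0.9579 with an offset of 64, 0.9845 with quantile and 0.9853 with cyclic loess normalization, and 0.9962 with no filter, a filter of 300, no intensity trend or no cross-hybridising probe sets. Without the block it passed under none of 13, its adjusted p running from 0.513 to 1. With the replicate block 740 probe sets were called in all, and 827, 1136, 664, 490, 573, 1561, 543 and 775 with an offset of 1, of 64, no filter, a filter of 300, quantile, cyclic loess, no trend and no cross-hybridising probe sets; the last was added after seeing the data. Without the block 0 were called, and from 0 to 110 with 1 array left out, the highest without the xSGK1 array of experiment 1 and 7 without that of experiment 2.

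The gdf3.S change passed with cyclic loess and the block (0.4434, adjusted p = 0.0462) and ran from 0.1922 to 0.6277 with 1 array left out. In the same way gdf1.S ran from 0.9596 to 1.0329, lefty.L from -0.2387 to 0.168 and lefty.S from -0.5395 to 0.2601 (0.0878 without the xSGK1 array of experiment 1). The difference between experiments turned to -0.0012 for gdf1.S with quantile normalization. With 1 array left out it ran from -0.0017 to 0.0733 for gdf1.S, from -0.1404 to 0.4356 for gdf3.S, from 0.0542 to 0.4067 for lefty.L and from 0.4549 to 0.7996 for lefty.S. For lefty.S it lost its call with quantile normalization (0.6121, adjusted p = 0.0546). The contrasts of gdf1.S with gdf3.S, lefty.L and lefty.S kept their direction under all 8 alternatives each, between 0.4052 and 1.499. With 1 array left out the lone array of a group is assumed to vary like the other group. The causes were not tested. Dim signals limit the Nodal probe sets.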
